A study of Mus musculus with 18 samples.

Results

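The genes described here are 9 genes of smooth-muscle contraction that mark the myoepithelial cell of the mammary gland: Acta2, Actg2, Myh11, Myl9, Mylk, Cnn1, Tagln, Tpm2 and Oxtr. They were chosen by name, with earlier results of these data known, as were the gene lists used below. All 9 genes were found, with 18 probe sets annotated to these symbols among the 45101 on the array. Each was read through its brightest probe set, as was each of the 18193 genes with a name. Their levels were followed over 17 one-colour arrays of sorted mouse mammary cells, as signal intensity or as log2(signal + 32), where the added 32 damps the noise of dim genes and understates their change.

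Cells of 3 mammary tumors, numbered 1, 2 and 7, were sorted by CD29 (integrin beta1) and CD24 into CD29 high CD24 high (CD29H CD24H), CD29H CD24L, CD29L CD24H and CD29L CD24L fractions, where L stands for low staining, with 1 array per fraction and tumor. Cells of normal mammary epithelium were sorted into a basal-type gate, high for CD29 and positive for CD24 (CD29H CD24P, 2 arrays), a luminal-type gate, positive for CD29 and high for CD24 (CD29P CD24H, 2 arrays), and a CD24L gate (1 array). Tumors 1 and 2 were of transplant generation 1 and no generation is given for tumor 7. The labels give no strain, age, genotype or number of animals pooled for either tissue. The study itself is known to have used transplanted p53-null mammary tumors, a genotype that the normal cells are not stated to share. A further array held a commercial reference RNA and entered no comparison.

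The sorted normal fractions matched basal and luminal identity by their markers. The 16 basal and myoepithelial genes outside the contractile group had a mean log2 level of 12.16 and 12.28 on the CD29H CD24P arrays, against 7.87 and 8.12 on the CD29P CD24H arrays, and 11 luminal genes stood at 9.19 and 9.08 against 12.52 and 12.71. The CD24L array went against its epithelial label, with a mean of 14.46 over 11 fibroblast genes and 7.66 over the luminal genes. All arrays were scaled to one trimmed mean, and their median signal lay between 71.6 and 104.2. On each array 25% of all probe sets lay under 17.7 to 29.5 signal units, so that signals of that size and below are not told apart from background. The 3'/5' signal ratio of the actin control probe sets, which is higher where RNA is shorter or amplification less complete, ran from 14.4 to 99.3 on the 12 tumor arrays (median 57.7) and from 3.08 to 24.7 on the 5 normal arrays (median 7.09).

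Myoepithelial cells lie between the luminal cells and the basement membrane of the mammary ducts and alveoli, and squeeze milk out when oxytocin reaches them. Oxytocin binds its receptor, which raises calcium; calcium and calmodulin switch on myosin light chain kinase; the kinase phosphorylates the regulatory light chain, and smooth-muscle myosin then pulls on actin filaments. The genes of this machinery are transcribed together in smooth muscle, where serum response factor and its partner myocardin act through a DNA element called the CArG box. Acta2 is also made by pericytes, vascular smooth muscle and activated fibroblasts, so that its transcript alone does not name the cell it comes from.

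In the mouse genome (GRCm38.p6, RefSeq) the 2 actin genes lie apart, Acta2 on chromosome 19 at 34240336 to 34255585 and Actg2 on chromosome 6 at 83512909 to 83536251. Myh11 spans chromosome 16 from 14194527 to 14292188 and Mylk the same chromosome from 34745199 to 35002436. Myl9 lies on chromosome 2 from 156775408 to 156781657 and Tpm2 on chromosome 4 from 43513726 to 43523583. Cnn1 and Tagln share chromosome 9, at 22099221 to 22109221 and 45929628 to 45936058, and Oxtr lies on chromosome 6 from 112473683 to 112491035. RefSeq promoter windows, each 300 bases long with 250 bases before a start site and 50 after it, were at hand for 6 of the 9 (Acta2, Mylk, Myl9, Cnn1, Tpm2 and Oxtr). The start sites of these windows lie inside the gene spans given above, by 29 bases for Tpm2, 32 for Cnn1, 56 for Myl9 and 212 for Acta2, but by 1210 for Oxtr and 39751 for Mylk, so that the last 2 windows do not cover the outer end of the gene. They were searched for the CArG box, which reads the same on both strands, and for boxes that miss 1 of its 10 letters. Myl9 held an exact box 161 bases before the start site of its window and a box missing 1 letter 99 bases before it, and Acta2 held boxes missing 1 letter 84 and 34 bases before the start site of its window. No box of either kind was in the other 4 windows, which says only that these letters are not in these windows. Of 32851 windows in the table, 1.63% held an exact box and 19.9% a box missing 1 letter. The windows of Acta2 (chr19:34255324-34255623, minus strand) and Myl9 (chr2:156775214-156775513, plus strand) are shown because they are the 2 in which a box was found; they run 5′ to 3′ along the gene, and capitals mark the boxes.
Acta2: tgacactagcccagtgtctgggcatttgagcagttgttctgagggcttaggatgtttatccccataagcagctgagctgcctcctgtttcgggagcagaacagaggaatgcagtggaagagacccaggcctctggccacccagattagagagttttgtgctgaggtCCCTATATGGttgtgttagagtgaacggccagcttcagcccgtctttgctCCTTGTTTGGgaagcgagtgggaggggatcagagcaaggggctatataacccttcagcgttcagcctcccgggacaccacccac
Myl9: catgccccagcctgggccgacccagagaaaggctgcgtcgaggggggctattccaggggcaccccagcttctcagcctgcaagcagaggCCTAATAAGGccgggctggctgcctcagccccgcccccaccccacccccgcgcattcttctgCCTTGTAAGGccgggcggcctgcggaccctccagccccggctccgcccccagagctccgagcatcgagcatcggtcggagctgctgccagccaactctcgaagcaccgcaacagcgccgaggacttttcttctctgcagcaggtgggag

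In normal glands all 9 genes were far higher in the CD29H CD24P cells than in the CD29P CD24H cells. By the brightest probe sets the largest difference was that of Myl9, the regulatory light chain, and the smallest that of Tpm2, a tropomyosin. The sizes depended on the probe set: other sets above the filter gave 1.57, 2.17 and 4.83 for Tpm2, 3.80 for Myh11 and 6.19 for Mylk. Each of the 9 passed limma's test across 10916 genes (adjusted p under 0.05), and each was higher. In this comparison 28.7% of all genes were called and 14.1% were called higher. The test took only genes above a filter on dim genes. Actg2, Myh11 and Cnn1 had log2 levels of 5.14 to 6.74 on the normal arrays outside the CD29H CD24P gate. They entered this fit through the CD29H CD24P arrays, so the count of 9 is not a fair match to the 14.1%. Without any filter all 9 passed too (limma, adjusted p of 0.000143 to 0.000313). The median difference of the 9 was 6.71 on the log2 scale and that of all genes tested −0.02. Myl9 had the lowest p of all genes.

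Among the actins, Acta2, smooth-muscle alpha-actin, had a signal of 42643 and 38526 in normal CD29H CD24P cells, against 1386 and 1581 in normal CD29P CD24H cells. The difference was 4.75 ± 0.21 (SE; adjusted p = 1.38e-06 with limma), or 26.8-fold. Actg2, the gamma-actin of enteric smooth muscle, had 3127 and 5041 against 22.9 and 30.3, a difference of 6.10 ± 0.30. The luminal-type cells thus had clear Acta2 signal but an Actg2 signal near the background of the array. Whether the Acta2 probe set also reads transcripts of other actins, which are nearly identical in coding sequence, is not known from the files.

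Myh11, the smooth-muscle myosin heavy chain, had 6810 and 8445 in CD29H CD24P cells, against 20.4 and 3.29 in CD29P CD24H cells (7.47 ± 0.29). For Myl9 the values were 11426 and 12574 against 6.97 and 6.13 (8.28 ± 0.25, adjusted p = 9.61e-07). Both genes were bright in the first fraction and at background in the second. Mylk, the kinase of the light chain, had 23914 and 19710 against 149.1 and 205.2 (6.71 ± 0.26).

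Of the proteins that sit on the actin filament, calponin (Cnn1) had 8389 and 9783 in CD29H CD24P cells, against 11.7 and 12.3 in CD29P CD24H cells (7.69 ± 0.25). Tagln, transgelin or SM22, had 18000 and 23304 against 126.0 and 203.4 (6.73 ± 0.28). Tpm2 had 27243 and 26623 against 1739 and 2362 (3.71 ± 0.23, adjusted p = 6.15e-06), so that, with Acta2, it was the member with a signal over 1000 in luminal-type cells. Oxtr, the oxytocin receptor, had 6120 and 5312 against 67.4 and 136.1 (5.47 ± 0.31). In none of the 9 did the 2 fractions overlap, which held for 31.6% of all genes in the direction of higher CD29H CD24P values. The levels on the plot by group show the same gap for every gene.

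**Figure D1:**
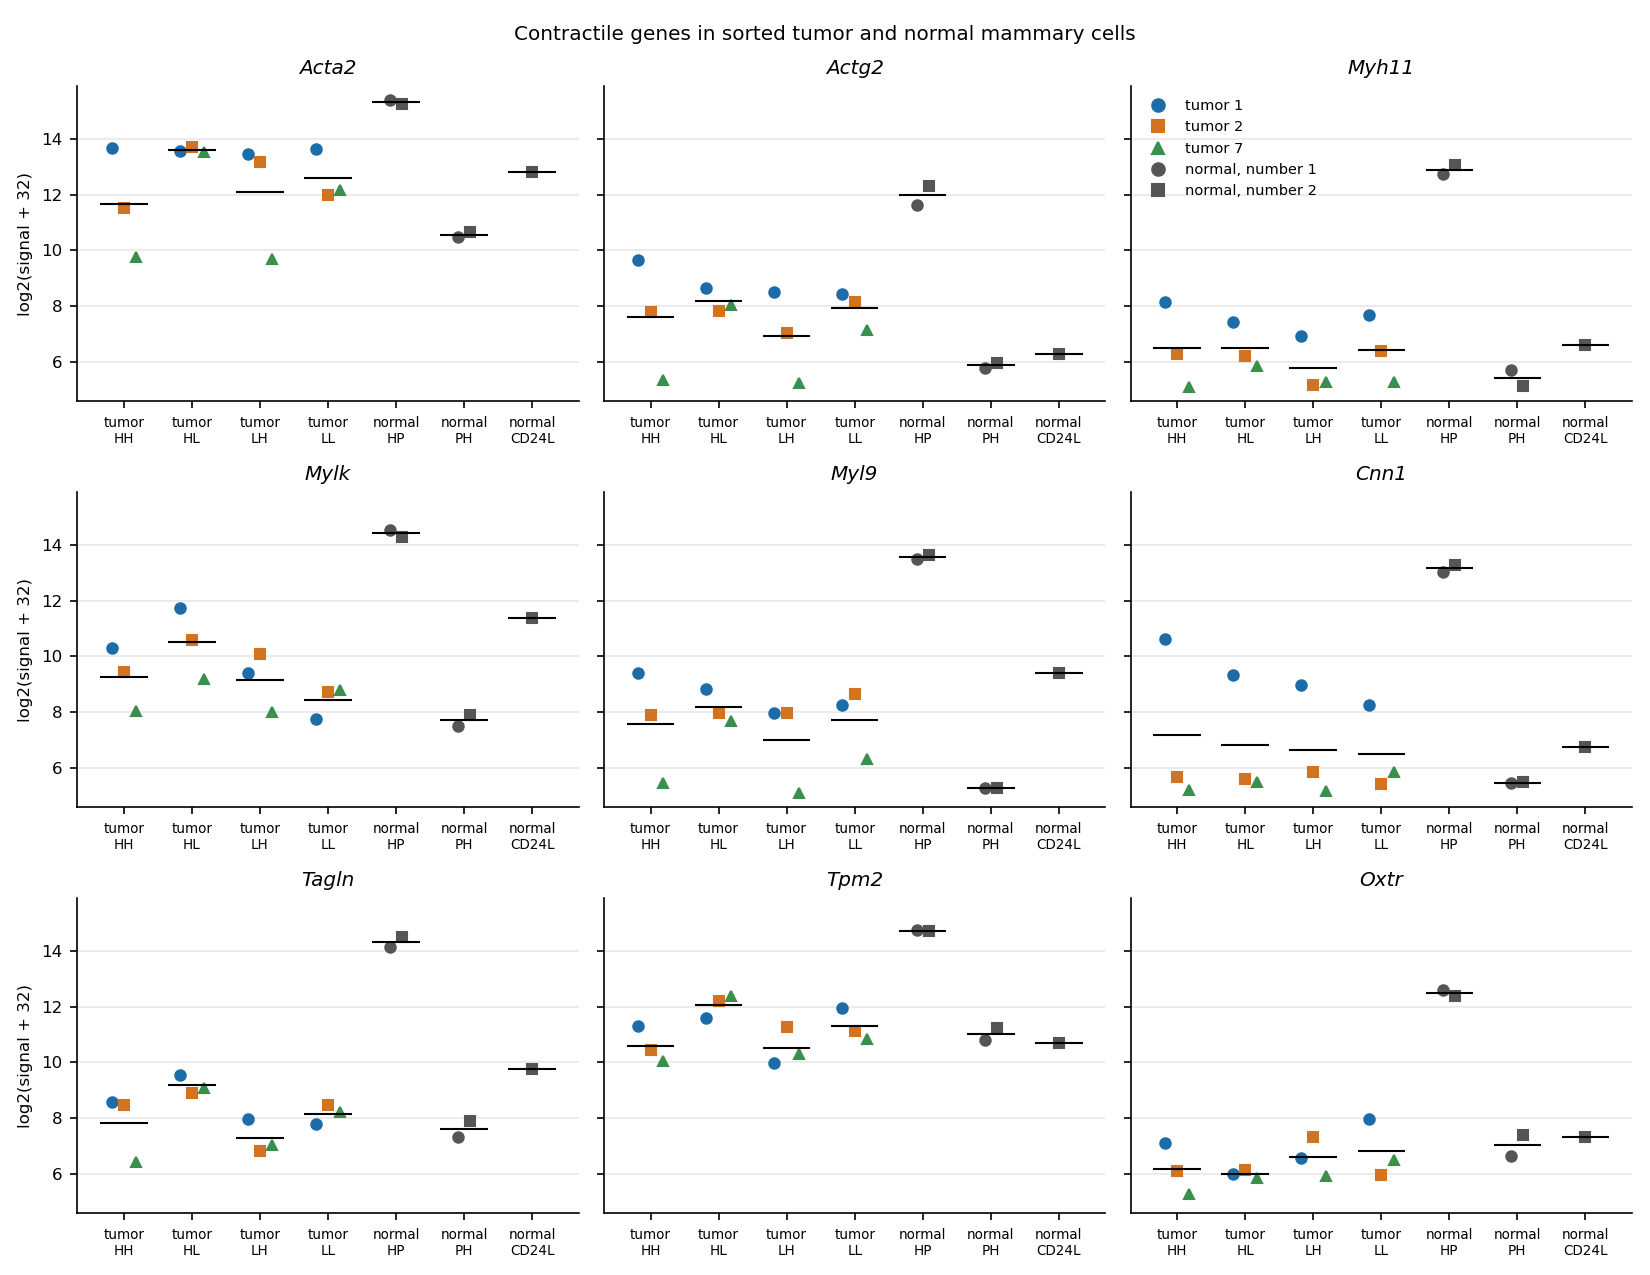
log2(signal + 32) of the 9 contractile genes (1 panel each) in the 4 tumor fractions (HH, CD29H CD24H; HL, CD29H CD24L; LH, CD29L CD24H; LL, CD29L CD24L) and the normal fractions (HP, CD29H CD24P; PH, CD29P CD24H; CD24L). Points are arrays, with shape and colour giving the tumor or the number of the normal sample, and lines are group means. In every panel both normal CD29H CD24P arrays lie above the other 15 arrays.

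The rest of the contractile apparatus differed less between the normal fractions. Of 17 measured genes on a list of other smooth-muscle and actin cytoskeleton genes, 9 were higher and 1 lower in CD29H CD24P cells, with a median difference of 0.82. The intermediate filament protein synemin, Synm (3.61 ± 0.33), nonmuscle myosin Myh10 (3.26 ± 0.35), caldesmon, Cald1 (3.19 ± 0.19), and filamin A, Flna (3.07 ± 0.24), rose; Myl12b, the light chain of nonmuscle myosin, fell by 0.97 ± 0.20. Of 15 genes of contraction signalling 4 were higher and 2 lower, with a median of 0.08. The higher ones were Kcnmb1, a subunit of the calcium-activated potassium channel (2.81 ± 0.29), Ppp1r14a, the inhibitor CPI-17 of myosin phosphatase (2.69 ± 0.31), Ppp1r12b (1.19 ± 0.26) and Kcnma1 (1.13 ± 0.34). Of 6 measured regulators around serum response factor Csrp2 (1.77 ± 0.29) and Elk3 (1.61 ± 0.26) were higher and none was lower. Srf itself differed by 0.04 ± 0.28 and did not pass (adjusted p = 0.941). Myocardin, Myocd, was under the filter on dim genes, with 160.6 and 121.9 in CD29H CD24P cells, against 1.85 and 4.53 in CD29P CD24H cells.

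The CD29H CD24H tumor cells, which stain most like the normal CD29H CD24P cells, had a small share of the normal contractile signal. All 9 genes were lower in them, with differences from −6.51 for Tagln to −3.66 for Acta2 and a median of −5.99, beside 0.06 over all genes tested. Each passed (limma, 17 arrays in 1 fit), in a comparison in which 9.59% of all genes were called and 4.8% were called lower. That fit takes the 4 fractions of a tumor as separate arrays, though arrays of one tumor deviated together. With the tumor or normal number as a random block all 9 passed too, where 11.5% of all genes were called. In a fit of the 2 groups alone 6 of 9 passed, where 5.1% of all genes were called, and Acta2 (adjusted p = 0.0831), Actg2 (0.0735) and Cnn1 (0.0691) did not; with an offset of 1 in place of 32 Actg2 did not (0.0516). Both comparisons so far use the same 2 normal CD29H CD24P arrays. In sorted populations a smaller number of contractile cells and less transcript per cell cannot be told apart.

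Acta2 had 13004, 2929 and 831.1 in the CD29H CD24H cells of tumors 1, 2 and 7, against 40584 ± 2911 in normal CD29H CD24P cells (SD, n = 2). The difference was −3.66 ± 1.04 (adjusted p = 0.0389). Actg2 had 780.1, 189.3 and 8.34 against 4084 ± 1353 (−4.37 ± 1.00, adjusted p = 0.0140). Both actins followed the same order, with tumor 1 highest and tumor 7 lowest, and no tumor array reached the normal range.

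Myh11 had 249.9, 45.6 and 2.06 in these tumor cells, against 7627 ± 1156 in the normal cells (−6.39 ± 0.84, adjusted p = 0.000428). Myl9 had 640.5, 203.0 and 11.1 against 12000 ± 811 (−5.99 ± 1.02, adjusted p = 0.00253). In tumor 7 both fell to the background of the array. Mylk kept more, with 1237, 657.9 and 227.4 against 21812 ± 2973 (−5.16 ± 0.76, adjusted p = 0.000873).

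Cnn1 separated the tumors most, with 1534, 18.9 and 5.03, against 9086 ± 986 in normal cells (−5.99 ± 1.54, adjusted p = 0.0253). Tagln had 345.7, 318.0 and 53.6 against 20652 ± 3750 (−6.51 ± 0.56, adjusted p = 1.69e-05). Tpm2 had 2491, 1353 and 1028 against 26933 ± 438 (−4.12 ± 0.47, adjusted p = 0.000208). Oxtr had 105.7, 35.8 and 6.29 against 5716 ± 571 (−6.34 ± 0.61, adjusted p = 5.52e-05). All 9 had values in the 3 tumors below both normal values, as did 22.5% of all genes.

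**Figure D2:**
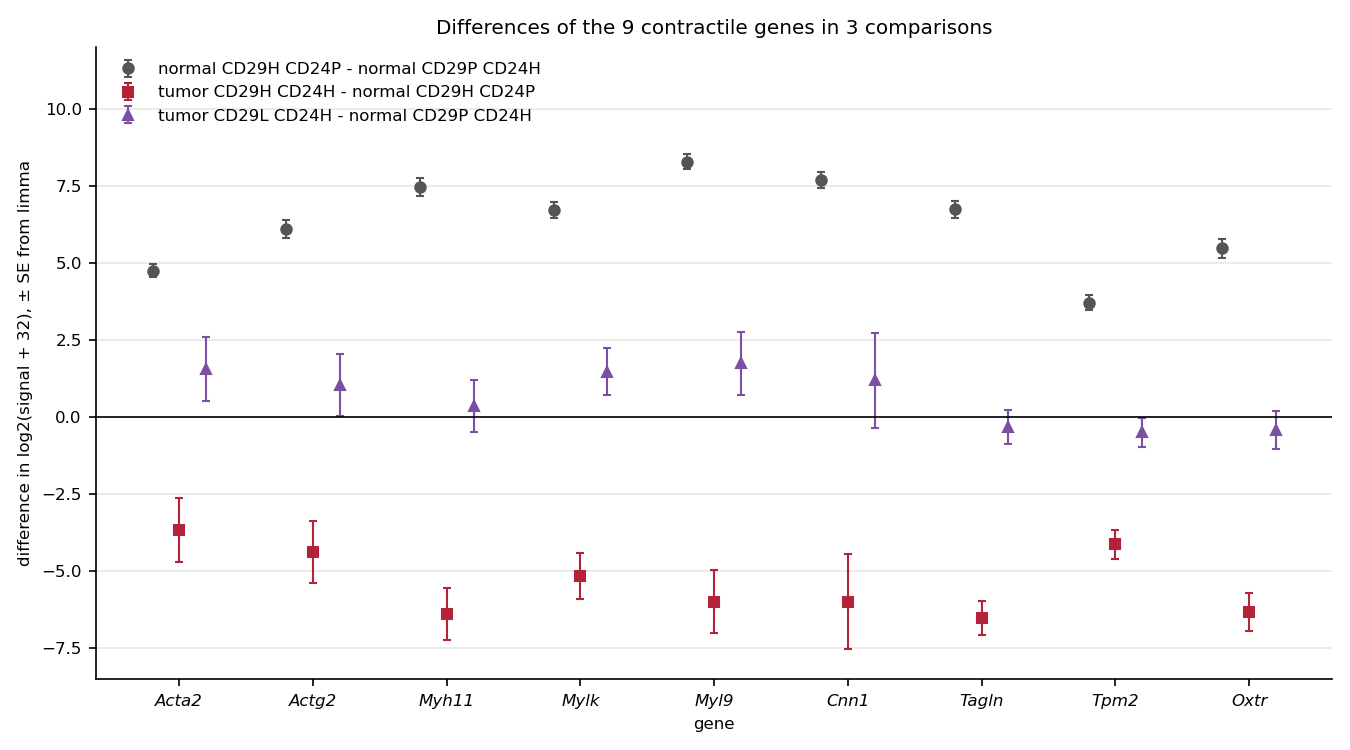
Differences in log2(signal + 32) of each of the 9 genes, with standard errors from limma, in 3 comparisons: normal CD29H CD24P minus normal CD29P CD24H cells, tumor CD29H CD24H minus normal CD29H CD24P cells, and tumor CD29L CD24H minus normal CD29P CD24H cells. The first lie between 3.71 and 8.28, the second between −6.51 and −3.66, and the third between −0.50 and 1.74.

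Myh11, Cnn1 and Oxtr passed the filter on dim genes in this fit through the normal CD29H CD24P arrays, since they are under it among the tumor arrays alone. Without any filter their adjusted p was 0.000410, 0.0314 and 3.89e-05, and that of Acta2, the highest of the 9, was 0.0498. The actin 3'/5' ratio moved with the comparison. With that ratio as a covariate, an alternative chosen after the data were seen, 4 genes passed (Myh11, Tagln, Tpm2 and Oxtr) of the 79 called, 0.724% of all genes. The differences of the 9 then ran from −8.28 for Cnn1 to −4.26 for Actg2, with standard errors of 0.75 to 2.39, against 0.47 to 1.54 without the covariate. Without a normal CD29H CD24P array Myh11 and Oxtr were under the filter, and of the 7 other genes 4 passed without the first array, where 1.88% of all genes were called, and 3 without the second, where 1.22% were. Without the CD29H CD24H array of tumor 2 or of tumor 7, Acta2 (adjusted p = 0.0759 and 0.111) and Cnn1 (0.0700 and 0.0741) did not pass.

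Further probe sets were above the filter for Mylk and Tpm2 alone, and gave the same direction. Of the 18 probe sets, 13 were above the filter here, the main set of each gene among them, and each was negative. The one that did not pass was 1 of the 4 sets of Tpm2 (−1.37 ± 0.43, adjusted p = 0.0609). A second Mylk probe set differed by −4.63 ± 0.58 and a second Tpm2 set by −5.52 ± 0.49. The other 2 probe sets of Acta2 and 1 further set each of Myh11, Mylk and Oxtr were under the filter.

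Around these 9 genes, other parts of the muscle-like cytoskeleton were lower in the tumor cells too, and most signalling genes above the filter did not pass. Of 17 measured genes of the other contractile and actin list 6 fell and none rose (median −1.23), among them smoothelin, Smtn (−3.08 ± 0.50), the LIM protein Pdlim7 (−2.98 ± 0.46), Synm (−2.69 ± 0.39) and Flna (−2.02 ± 0.46). Cald1, by contrast, differed by −0.64 ± 0.46 and did not pass (adjusted p = 0.405). It had 17339, 9947 and 35960 in CD29H CD24H tumor cells, against 30478 and 26871 in normal CD29H CD24P cells. Of 12 measured contraction signalling genes 1 rose, the myosin phosphatase subunit Ppp1cb (1.40 ± 0.34), and none fell. Kcnmb1, Ppp1r14a and Kcnma1, which were higher in normal CD29H CD24P than CD29P CD24H cells, were under the filter in this fit and not tested. Of 7 measured regulators around serum response factor, Fhl2 fell (−2.09 ± 0.45) and Srf did not pass (−1.03 ± 0.53, adjusted p = 0.233).

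Basal genes outside the contractile group were kept to a different degree in each tumor. Of 16 such genes 5 passed as lower and none as higher, with a median of −2.71: Krt17 (−4.22 ± 1.23), Igfbp2 (−4.10 ± 0.95), Lgals7 (−3.61 ± 0.57), Ltbp2 (−3.24 ± 0.70) and Itgb4 (−1.76 ± 0.44). Trp63, the transcription factor p63 of basal cells, had 7526, 3517 and 450.9 in the CD29H CD24H cells of tumors 1, 2 and 7, against 10416 and 8743 in normal CD29H CD24P cells. Snai2, the basal factor Slug, had 21595, 11425 and 98.8 against 28758 and 21845. Id4, a basal regulator of the helix-loop-helix family, had 19302, 21185 and 43.1 against 10665 and 7948. These 3 were picked from the list after their values were seen and do not stand for it. All 16 genes of the list had negative differences. Those of Krt17, Igfbp2 and Lgals7 were near those of Acta2 (−3.66) and Tpm2 (−4.12). In tumors 1 and 2 Trp63, Snai2 and Id4 stood at 36.7% to 227.6% of the normal mean, and the 9 contractile genes at 0.208% (Cnn1, tumor 2) to 32.04% (Acta2, tumor 1). In tumor 7 the factors stood at 0.391% to 4.71% and the contractile genes at 0.0271% to 3.82%. The lowest contractile value in both ranges was at the background of the array. None of the 3 factors passed over the 3 tumors. Whether the contractile genes differ from these by more than chance was not tested.

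**Figure D3:**
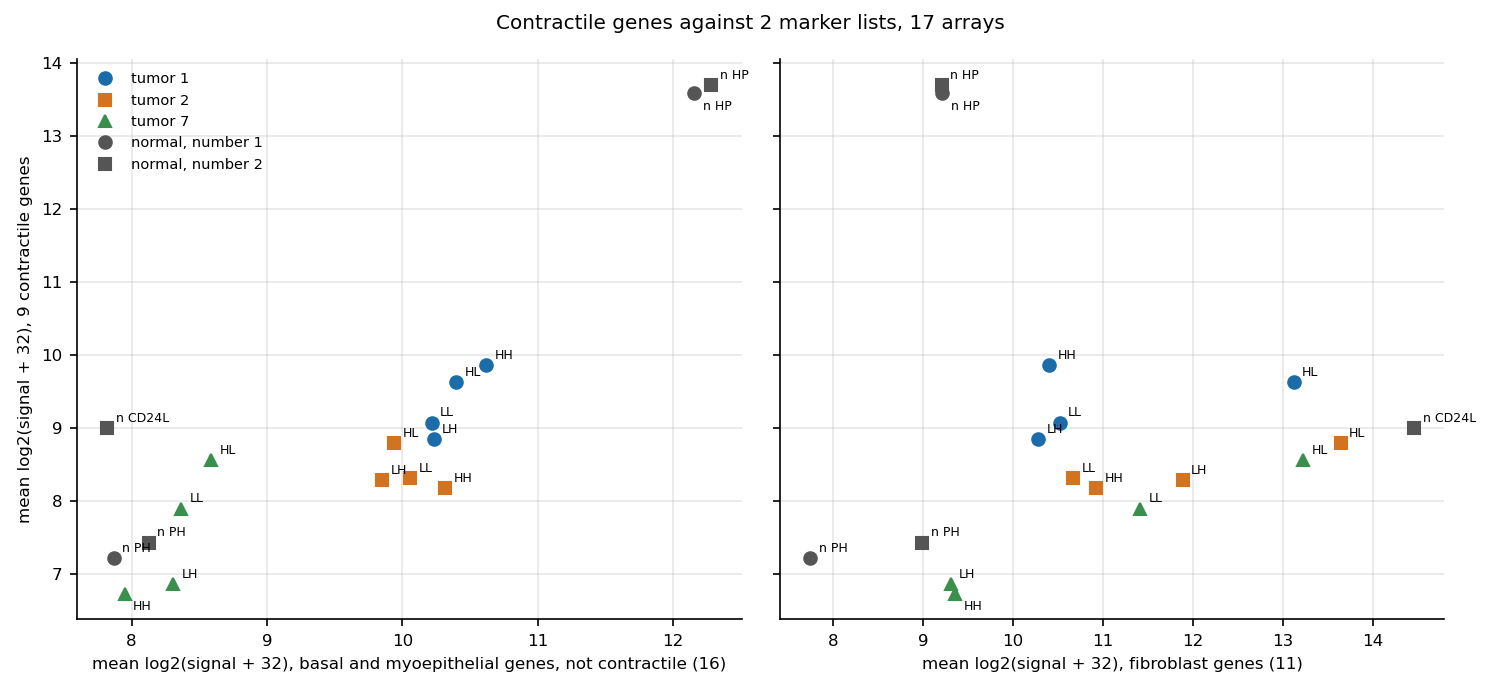
Mean log2(signal + 32) of the 9 contractile genes (vertical axis) against that of 16 basal and myoepithelial genes outside the group (left) and of 11 fibroblast genes (right), for 17 arrays. Tumor fractions are labelled HH, HL, LH and LL, normal fractions with n. The 2 normal CD29H CD24P arrays lie apart at 13.6 and 13.7, tumors 1 and 2 lie between 8.17 and 9.86, and the CD24 high fractions of tumor 7 are the lowest, at 6.73 and 6.86.

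The CD29L CD24H tumor cells were then set against the normal CD29P CD24H cells, the luminal-type cells of the gland. No contractile gene passed (0 of 9, and 0 of 9 at an unadjusted p under 0.05), in a comparison in which 8.77% of all genes were called. Myh11, Cnn1 and Oxtr entered this fit through the normal CD29H CD24P arrays, and Myh11 and Cnn1 were near background on most arrays of both groups, so the count says little about them. Acta2 had 11245, 9129 and 800.1 in tumors 1, 2 and 7, against 1386 and 1581 in the normal cells, a difference of 1.54 ± 1.04 (adjusted p = 0.375). Myl9 had 218.9, 216.4 and 2.15 against 6.97 and 6.13 (1.74 ± 1.02, adjusted p = 0.307). Mylk had 635.6, 1052 and 225.4 against 149.1 and 205.2 (1.46 ± 0.76, adjusted p = 0.246) and was the 1 gene whose groups did not overlap, which in this direction held for 24.1% of all genes. In tumors 1 and 2 the 3 genes lay above both normal luminal-type values. In tumor 7 Acta2 lay below them, Mylk lay above them, and Myl9 was at background, as it was in the normal cells. Without the arrays of tumor 7 these 3 passed, with differences of 2.75 for Acta2 (adjusted p = 0.0188), 2.04 for Mylk (0.0257) and 2.70 for Myl9 (0.00537), and 12.4% of all genes were called. Tagln (−0.33 ± 0.56), Oxtr (−0.42 ± 0.61) and Tpm2 (−0.50 ± 0.47) had negative values that did not pass.

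Some fibroblast and pericyte transcripts were higher in those tumor cells, in a comparison in which 4.82% of all genes were called higher. Of 11 fibroblast genes 4 passed as higher (Col1a1, Col3a1, Col1a2 and Postn), and decorin, Dcn, had −2.24 ± 0.80 and did not pass. The list means lay between 9.30 and 11.89 in the tumor cells and were 7.74 and 8.99 in the normal cells. Of 7 measured pericyte genes Rgs5, Abcc9 and Pdgfrb, 3 in all, passed as higher. Their part in the contractile values was not tested.

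The CD29 gates of CD24 high tumor cells parted 6 of the contractile genes less than the basal-type and luminal-type gates of the normal gland. The 2 contrasts are not the same gate: the normal fractions differ in CD29 and CD24 staining, the tumor fractions in CD29 alone. Between CD29H CD24H and CD29L CD24H cells of the tumors the 9 genes differed by −0.46 to 0.72, against 3.71 to 8.28 between the 2 normal fractions. In the test of this difference of differences, 6 of 9 passed as lower (Myh11, Mylk, Myl9, Tagln, Tpm2 and Oxtr), where 2.49% of all genes were called and 1.7% were called lower. Tagln, for instance, differed by 0.55 in tumors and 6.73 in normal cells, which makes −6.19 ± 0.79 (adjusted p = 0.000798). Acta2 (−5.20 ± 1.47, adjusted p = 0.0854), Actg2 (−5.41 ± 1.41, 0.0590) and Cnn1 (−7.18 ± 2.18, 0.113) did not pass. Myh11, Cnn1 and Oxtr entered this fit through the normal CD29H CD24P arrays. Without any filter Myh11 (adjusted p = 0.00656, limma) and Oxtr (0.00213) passed and Cnn1 (0.126) did not. With the replicate block, which compares fractions within a tumor, all 9 passed, and so did 10.3% of all genes. The adjusted p under the block was 0.00195 for Acta2, 0.000508 for Actg2 and 1.10e-05 for Cnn1. With the actin ratio as a covariate 2.13% of all genes were called, and the same count of 6 of the 9. Without a normal CD29H CD24P array 2 of the 7 genes then above the filter passed (Mylk and Tagln), where 0.861% (first array left out) and 0.715% (second) of all genes were called. Without the first normal CD29P CD24H array 4 of 9 passed, where 0.705% were called.

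In the tumors alone, with 12 arrays in the fit, 6 of the 9 genes were above the filter (Acta2, Actg2, Mylk, Myl9, Tagln and Tpm2). None of them passed between CD29H CD24H and CD29L CD24H cells, nor did any gene on the array (0% called; 288 genes at an unadjusted p under 0.05, and 1 gene, 0.00916%, with the replicate block). The 3 tumors pointed in different directions for these genes, except Actg2, which was positive in each. In tumor 7 both Actg2 signals (8.34 and 5.29) were at background and differed by 0.11, so the sign there tells nothing. Acta2 differed by 0.21 in tumor 1, −1.63 in tumor 2 and 0.05 in tumor 7, Tagln by 0.61, 1.65 and −0.62, and Tpm2 by 1.33, −0.82 and −0.26.

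Between the CD24 gates of CD29 high tumor cells no contractile gene passed, with negative values for all 6 in CD29H CD24H minus CD29H CD24L cells (0 of 6, where 2.19% of all genes were called, all lower; 4.97% with the block and again 0 of 6). Tpm2 had 2491, 1353 and 1028 in CD29H CD24H cells of tumors 1, 2 and 7, against 3031, 4713 and 5253 in CD29H CD24L cells, a difference of −1.46 ± 0.46 (adjusted p = 0.215). The other 3 probe sets of Tpm2 gave −1.18 ± 0.48, 0.19 ± 0.41 and 0.31 ± 0.46, so they disagreed in sign, and the mean of all 4 gave −0.53. Tagln had 345.7, 318.0 and 53.6 against 705.6, 449.4 and 505.2 (−1.36 ± 0.54, adjusted p = 0.424). In both genes each tumor was lower in CD29H CD24H cells, and the 2 groups did not overlap, which held for 8.44% of all genes. Acta2 was nearly equal in the 3 CD29H CD24L fractions, at 12113, 13315 and 11906, while it spread from 831.1 to 13004 in the CD29H CD24H cells (−1.95 ± 1.01, adjusted p = 0.662). The CD29H CD24L cells also had more stromal transcript: 7 of 11 fibroblast genes and 3 of 8 measured pericyte genes fell in CD29H CD24H cells against them, among them Fap (−3.83 ± 0.55) and the pericyte receptor Pdgfrb (−3.53 ± 0.58). The fibroblast list averaged 9.36 to 10.93 in CD29H CD24H cells and 13.12 to 13.65 in CD29H CD24L cells. The part of those cells in the Acta2, Tagln and Tpm2 values was not tested.

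Within CD24 low tumor cells the light chain kinase Mylk was the member with the largest difference between CD29 gates. It had 3369, 1510 and 542.3 in CD29H CD24L cells of tumors 1, 2 and 7, against 184.2, 393.1 and 411.2 in CD29L CD24L cells, and each tumor was higher in the first. The difference was 2.07 ± 0.74 and did not pass (adjusted p = 0.355; 0 of 6 genes, where 1.1% of all genes were called). With the replicate block Mylk passed (2.07 ± 0.52, adjusted p = 0.0350; 4.48% of all genes called), and no other contractile gene did. Its size came mostly from tumor 1, where it was 3.98, against 1.86 in tumor 2 and 0.37 in tumor 7. Fibroblast genes moved with it, 2 of 11 passing as higher, and 8 with the block; pericyte genes Pdgfrb (2.78 ± 0.58) and Rgs5 (2.52 ± 0.51) passed as higher.

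**Figure D4:**
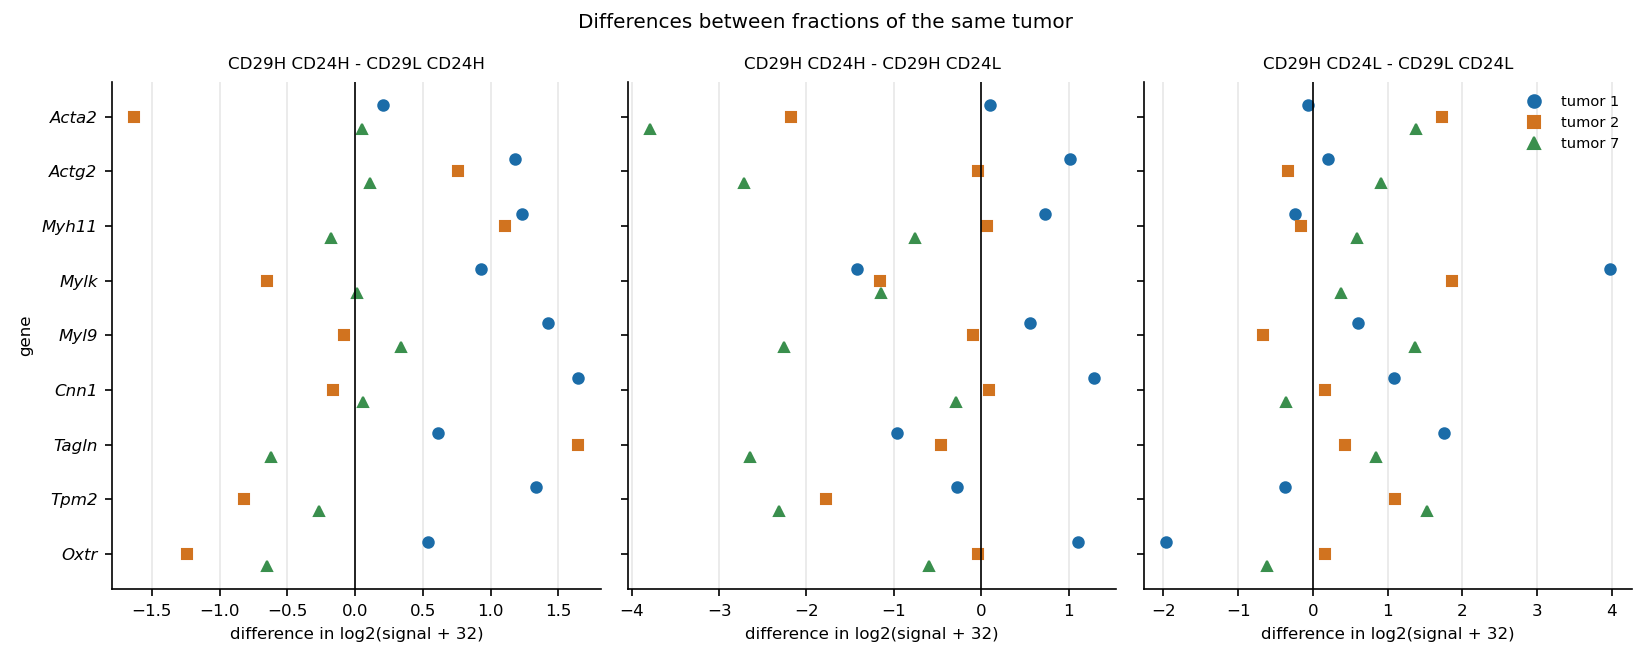
Differences in log2(signal + 32) of the 9 genes between 2 fractions of the same tumor, 1 point per tumor, for CD29H CD24H minus CD29L CD24H, CD29H CD24H minus CD29H CD24L, and CD29H CD24L minus CD29L CD24L cells. In the first panel the tumors fall on both sides of 0 for every gene but Actg2. In the second, Mylk, Tagln and Tpm2 are negative in all 3 tumors, and in the third Mylk and Tagln are positive in all 3.

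Over all 12 tumor arrays the members differed in how much signal they kept. By the median over these arrays Acta2 kept the most, from 1.97% to 32.8% of the normal CD29H CD24P mean (median 25.1%), followed by Tpm2 with 3.60% to 19.5% (median 8.51%) and Actg2 with 0.130% to 19.1% (median 5.24%). The order was not the same on each array: in CD29H CD24H cells of tumor 7 Tpm2 kept 3.82% and Acta2 2.05%, and in those of tumor 1 Actg2 kept 19.1% and Tpm2 9.25%. These shares use the brightest probe set of each gene, and the place of Tpm2 depends on that choice. Another Tpm2 set had 13308 and 16324.5 in normal CD29H CD24P cells, against 132.2 to 1156 on the tumor arrays. A dimmer one had 367.0 and 435.2 against 66.3 to 222.7. Mylk ran from 0.845% to 15.4% (median 2.70%). Myl9 (median 1.81%), Tagln (1.42%), Oxtr (0.641%) and Myh11 (0.574%) kept at most 5.34%, 3.42%, 3.82% and 3.28%. Cnn1, with a median of 0.240%, divided the tumors. It stood at 16.9%, 6.69%, 5.16% and 2.97% in the 4 fractions of tumor 1 and at 0.287% or less in all fractions of tumors 2 and 7. In tumors 2 and 7 its signals were 3.61 to 26.1, at the background of the array. Myh11 and Oxtr also reached background on some tumor arrays, down to 2.06 and 6.29. The size of such low percentages, and the order of these genes by their medians, is therefore not told by the values.

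**Figure D5:**
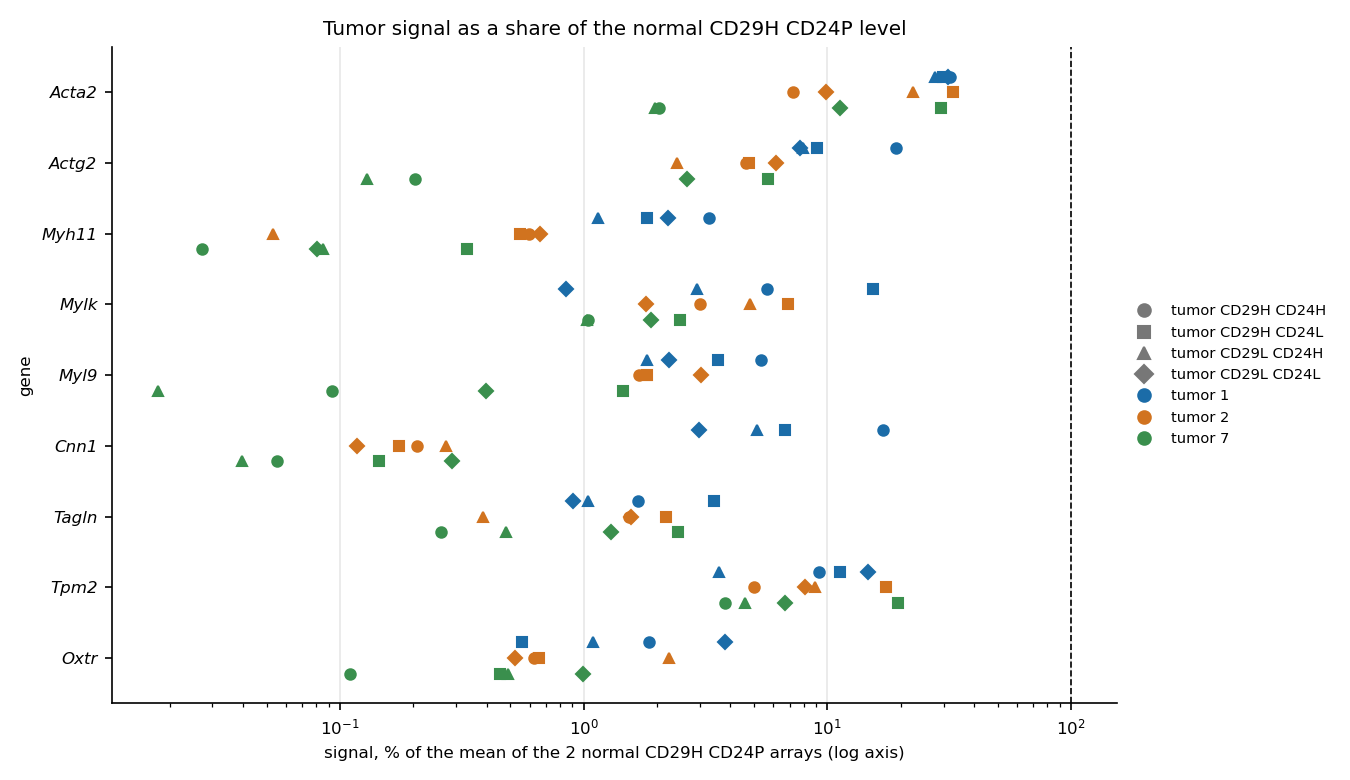
Signal of each gene on each tumor array as a percentage of the mean of the 2 normal CD29H CD24P arrays (log axis; the dashed line is 100%). Colour gives the tumor and shape the fraction. Every point is at or under 32.8%, and Cnn1 is above 1% in tumor 1 alone.

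The order of the groups was alike in the members only at its top, where normal CD29H CD24P cells stood first for all 9. For Acta2 the CD29H CD24L tumor cells followed at a log2 level of 13.61 ± 0.09 (SD, n = 3), then the single normal CD24L array at 12.81 and the tumor CD29L CD24L, CD29L CD24H and CD29H CD24H cells at 12.59 ± 0.91, 12.11 ± 2.09 and 11.65 ± 1.96. Normal CD29P CD24H cells came last at 10.56 ± 0.13 (n = 2). For Mylk the normal CD24L array was second, at 11.38, before the tumor CD29H CD24L cells at 10.50 ± 1.29, and normal CD29P CD24H cells were last at 7.70 ± 0.28. For Oxtr the tumor CD29H CD24L cells were last, at 5.99 ± 0.13, below normal CD29P CD24H cells at 7.01 ± 0.54. Below the first place, neighbouring groups of several arrays in the orders of these 3 genes differed by less than the larger of their standard deviations, except for Acta2 between tumor CD29H CD24L and tumor CD29L CD24L cells, and for Mylk between tumor CD29L CD24L (8.43 ± 0.58) and normal CD29P CD24H cells. The single CD24L array, which has no spread, was passed over.

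The mean over the 9 members differed between tumors. Their mean log2 level in CD29H CD24H cells was 9.86 in tumor 1, 8.17 in tumor 2 and 6.73 in tumor 7, and in CD29H CD24L cells 9.63, 8.79 and 8.56. By this mean tumor 7 was the lowest in all 4 fractions, but not for each gene: in CD29L CD24L cells Mylk had 184.2, 393.1 and 411.2 in tumors 1, 2 and 7, and Tpm2 was highest in tumor 7 in CD29H CD24L cells. In its CD29H CD24H and CD29L CD24H cells, Actg2 (8.34 and 5.29), Myh11 (2.06 and 6.48), Myl9 (11.1 and 2.15) and Cnn1 (5.03 and 3.61) were at the background of the array, and its CD29H CD24L cells had 233.2, 25.4, 174.0 and 13.1 for the same genes.

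The members differed widely in signal on the normal CD24L array. It had 7154 for Acta2, 2638 for Mylk, 1641 for Tpm2, 837.9 for Tagln and 637.7 for Myl9. Lower were Actg2 (46.2), Myh11 (64.3), Cnn1 (75.2) and Oxtr (126.9), all above the 22.9 under which 25% of its probe sets lay. The array also had the highest fibroblast list mean of the 17 arrays and 5973 for Pdgfrb. With 1 array it gives no test.

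The 9 skeletal muscle genes on the list had a mean log2 level of 5.63 to 6.22 over all 17 arrays, close to the 5 that a signal of 0 gives on this scale, and all were under the filter.

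The 5 genes most like the members, by Pearson correlation with the members' mean log2 level over the 17 arrays among 10907 genes, were Sema6d (r = 0.961), Reln (0.948), Tmem200a (0.917), Fhod3 (0.908) and Flna (0.908). The arrays share tumors and normal samples, and the 2 normal CD29H CD24P arrays carry much of these values. Reln, the secreted protein reelin, had 430.6, 178.4 and 65.2 in CD29H CD24H tumor cells, against 8643 and 9372 in normal CD29H CD24P cells. Fhod3, a formin that nucleates actin filaments, had 216.2, 13.9 and 54.4 against 4685 and 4890. Sema6d, a semaphorin, had 826.5, 330.9 and 157.6 against 3252 and 3473.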

How the data were processed

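Gene expression was measured on 18 one-colour arrays, 17 of them of sorted cells. The deposited values are linear signal intensities, scaled by the authors to a trimmed mean of 500 on every array; GCOS is named per the submitters' processing notes, and 2 cycles of amplification per the labels' protocols. The number of arrays limits the precision. Separate animals are not stated for the normal samples, so the p-values reflect how far these particular samples spread, which may be technical variation.

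Signals were taken as log2(value + 32). For each of 18193 genes the brightest probe set (by mean signal, 17 arrays) was used. The array holds 45101 probe sets: 34945 carry a single symbol, 932 more than 1, 9160 no symbol, and 64 are controls. The lowest 40% of genes were dropped in each fit, which left 10916. Differences were tested with limma 3.58.1 in R 4.3.3 (Benjamini-Hochberg, threshold 0.05) and the script was tested on simulated data. The normal comparison used the 5 normal arrays, comparisons of tumor with normal cells all 17, and comparisons among tumor fractions the 12 tumor arrays. Tables and figures were made with Python 3.11.15 and matplotlib 3.10.9.

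Arrays of one tumor deviated together (correlations of 0.391 to 0.727 over 18 pairs), so the tumor pairs the fractions. The pairing comes from the tumor number in the labels. The members and gene lists were chosen with earlier results of these data known. All 9 members are named, as are list genes with the largest called differences, a few others chosen after their values were seen (Cald1, Srf, Myocd, Trp63, Snai2, Id4), and the 5 genes most correlated with the members. Alternatives were the offset, quantile normalization, the filter, the mean of probe sets, the intensity trend, the replicate block, the arrays in the fit, and the omission of single arrays or whole tumors. The actin ratio as a covariate was added after the data were seen.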

Additional observations from a re-analysis of the deposited data

Results flagged for a closer look

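For 6 genes the difference between CD29 gates in tumors (CD29H CD24H minus CD29L CD24H) was not the difference between the normal fractions (CD29H CD24P minus CD29P CD24H), by limma's test of the interaction over 17 arrays. This fit does not pair the fractions by tumor. With the replicate block, which does, all 9 members passed, and so did 10.3% of all genes. Myh11 differed by 0.72 in tumors and 7.47 in normal cells, an interaction of −6.75 ± 1.19 (SE, adjusted p = 0.00735). Mylk differed by 0.10 and 6.71 (−6.62 ± 1.07, adjusted p = 0.00418), and Myl9 by 0.56 and 8.28 (−7.72 ± 1.45, adjusted p = 0.00987). Tagln gave −6.19 ± 0.79 (adjusted p = 0.000798). Tpm2 differed by 0.08 and 3.71 (−3.63 ± 0.67, adjusted p = 0.00878), and Oxtr by −0.45 and 5.47 (−5.92 ± 0.87, adjusted p = 0.00223). All 3 tumors and both normal samples enter each value. The normal fractions differ in CD24 as well as CD29 staining, the tumor fractions in CD29 alone. Myh11 and Oxtr passed the filter on dim genes through the normal CD29H CD24P arrays. Without any filter their adjusted p (limma) was 0.00656 and 0.00213.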

How the results depend on the processing

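Over 561 recomputed gene values, without those that leave out arrays, 540 kept their direction and side of the threshold, 10 lost a call, 8 gained one and 3 changed sign. Between the normal fractions every member in the fit passed under every alternative. All 9 were in each fit, except with the lowest 60% left out, where Actg2 was under the filter and the other 8 passed. In the main fit 3131 genes passed, against 2080 with the lowest 60% left out and 855 with all 17 arrays in the fit. With the replicate block 3437 did (normal numbers share only a number, r = 0.0640), and with an array left out 1961 to 4873 did. For tumor CD29H CD24H against normal CD29H CD24P cells 4 members passed with the 60% filter, the 4 it left in the fit, and 6 members and 557 genes with the 2 groups only; with the actin ratio as a covariate 4 members and 79 genes did, and with arrays or a tumor left out 3 to 9 members and 133 to 1251 genes. For tumor CD29L CD24H against normal CD29P CD24H cells 585 genes passed with the 2 groups only and 520 with the actin ratio, where Myh11 (−0.20), Cnn1 (−0.32) and Tagln (0.21) changed sign; leaving out arrays gave 0 to 3 members and 140 to 1354 genes, and Myh11 ran from −0.21 to 0.66. In the test between gates 3 members and 166 genes passed with the 60% filter, 9 members and 1128 genes with the replicate block, and 2 to 8 members and 77 to 352 genes with arrays left out. Between CD29H CD24H and CD29L CD24H tumor cells 1 gene passed with the block, also with the actin ratio added, and 0 members and 0 genes with arrays left out; there Acta2 ran from −1.66 to 0.49, Actg2 from −0.35 to 1.82, Mylk from −0.48 to 0.71, Myl9 from −0.40 to 1.63, Tagln from −0.00304 to 1.24 and Tpm2 from −0.54 to 0.53. Between CD29H CD24H and CD29H CD24L cells 135 genes passed with the 60% filter, 543 with the block, 456 with block and actin ratio, and 0 to 246 with arrays left out (0 members), with Actg2 from −1.61 to 0.55 and Myl9 from −1.51 to 0.47. Between CD29H CD24L and CD29L CD24L cells the counts were 67 (offset of 1), 218 (offset 4 times as large), 74 (60% filter), 208 (17 arrays), 72 (actin ratio), 489 genes and 1 member with the block, 426 and 1 with block and actin ratio, and 0 to 177 genes and 0 members with arrays left out, where Actg2 ran from −0.12 to 0.56 and Myl9 from −0.27 to 0.99. The causes were not tested. Signals near background limit Myh11, Cnn1 and Oxtr in tumors.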
